A study of Mus musculus with 10 samples.

Results

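The genes described here are 45 mouse genes of the cell cycle and of DNA replication, measured by RNA sequencing of whole lung tissue. They were taken by gene name from a table of 54532 genes. All 45 occurred once in the table, and all 45 were among the 17139 genes with enough counts to be tested. For description they were divided into 20 G1/S genes and 25 G2/M genes. The G1/S genes were 7 G1 cyclins and entry regulators and 13 genes of replication licensing and DNA synthesis. The G2/M genes were 9 cyclin, kinase and ubiquitin ligase genes and 16 genes of the spindle, kinetochore, chromosomes and cytokinesis.

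The lungs came from wild-type (WT) mice in 3 treatment groups. Vehicle had 3 libraries, LPS (lipopolysaccharide, a bacterial cell wall component that triggers innate immunity through TLR4) had 3, and LPS+TSLP had 4. In LPS+TSLP, recombinant TSLP (thymic stromal lymphopoietin, an epithelial cytokine) was given ahead of LPS. There was no group given TSLP without LPS, and doses, times, strain, age and sex are not given in the sources used here. The labels call the libraries replicates without saying that each is a separate animal, so p-values measure the spread between these libraries, which may be in part technical.

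A cell enters the cycle when D-type cyclins, and then E-type cyclins, activate their kinases and release E2F transcription factors. E2F proteins switch on genes for loading and firing replication origins and for making nucleotides. Later in the cycle, cyclin A and B with CDK1, Polo and Aurora kinases drive the cell through mitosis, and the anaphase-promoting ubiquitin ligase ends it. Most cells of the adult lung rest outside the cycle, so whole-tissue levels of mitotic genes are low. In a tissue sample, fewer cycling cells and less RNA per cycling cell cannot be told apart.

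Library totals ranged from 16175172 to 18374461 counts, and the 45 genes took from 0.102% to 0.155% of them. Levels below are CPM (counts scaled to a common library size) on library sizes scaled by TMM, and intervals are mean ± SD over libraries. Lung markers were present throughout: the summed level of 6 alveolar type 2 cell markers was between 3700 and 23800 CPM in every library. A library that differed broadly from the rest was LPS+TSLP replicate 1. Its mitochondrial share was 13.1%, with 1.11% to 6.5% elsewhere, and its summed level of 6 neutrophil markers was 115 CPM against 663 to 1010 CPM in the other LPS+TSLP libraries. In LPS replicate 1, Xist, which is made in female cells to silence an X chromosome, was at 206 CPM. There was no Ddx3y, a Y-linked gene, in that library. The other 9 libraries had at most 0.452 CPM of Xist. Among them, Ddx3y was 7.92, 6.03 and 11.4 CPM in Vehicle and 59.7 to 94.8 CPM in the treated libraries. The cause of this difference was not tested. Where a call was lost without LPS replicate 1 or LPS+TSLP replicate 1, this is stated.

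LPS was compared with Vehicle to ask how the lung's cell cycle transcripts stood after the stimulus. The proliferation marker Mki67 was 6.08-fold higher with LPS, and Ccne2, which encodes cyclin E2, and Cdkn1a, which encodes the CDK inhibitor p21, were also higher. Kif20a, Ccnb1, Cdc20, Prc1 and Bub1b, all genes of mitosis, and Mcm7, a subunit of the replicative helicase, were lower, by 1.4-fold to 4.08-fold. The other 36 genes did not pass the test. The test was edgeR's quasi-likelihood test over all 17139 genes, with a Benjamini-Hochberg adjusted p under 0.05 as the threshold. Across all tested genes 14.2% were called higher and 10.7% lower, 24.9% either way, so 9 calls among 45 genes do not exceed the background. The median log2 fold change was -0.51 over the 45 genes and 0.01 over all tested genes. It was -0.27 over the G1/S genes and -0.68 over the G2/M genes.

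Libraries of the groups did not overlap for 26 of the 45 genes, with LPS lower in 22 and higher in 4. Over all tested genes 25.1% were lower without overlap, 24.7% were higher and 49.8% went either way. Only 10 of the 45 log2 fold changes were positive. At an unadjusted p under 0.05 there were 19 of the 45, beside 39.6% of all tested genes. The number of calls depended on single libraries. Without LPS replicate 1, 3 genes were higher and 1 was lower, and of all tested genes 9.14% were higher and 5.67% lower. Without LPS+TSLP replicate 1, which enters through the shared estimate of spread, 5 were higher and 10 lower. Over all tested genes the shares also rose in that fit, to 17.3% higher and 14.3% lower. When Vehicle replicate 1 or Vehicle replicate 2 was left out, 1 was higher and 2 were lower, beside 6.1% and 6.09% of all genes higher and 3.52% and 4.69% lower. Without Vehicle replicate 3, 4 were higher and 2 lower, beside 12.6% and 9.42% of all genes. Without LPS replicate 2, LPS replicate 3 or LPS+TSLP replicate 4, 3 were lower, beside 7.68%, 9.99% and 11.3% of all genes.

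**Figure D1:**
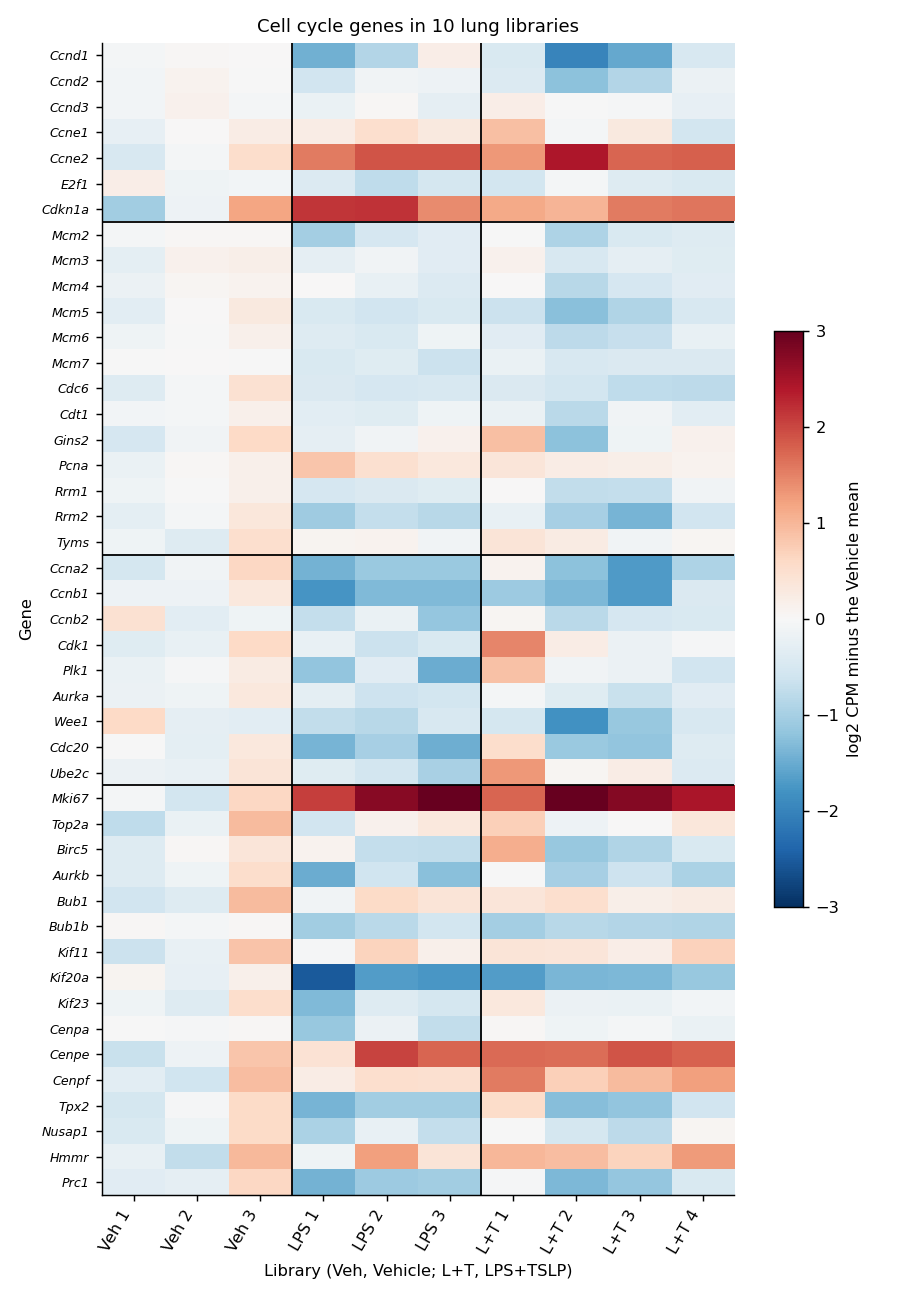
Level of each of the 45 genes (rows, grouped by list) in each of the 10 libraries (columns), as log2 CPM minus the mean of the 3 Vehicle libraries. Mki67 is red in all LPS and LPS+TSLP libraries, Kif20a and Bub1b are blue in all of them, and in LPS+TSLP replicate 1 many G2/M genes are redder than in replicates 2 to 4.

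Mki67, whose protein coats mitotic chromosomes and is the standard histological mark of cycling cells, lies at chr7:135689784-135716361 (GRCm38, minus strand). Its level was 6.68, 4.75 and 11 CPM in Vehicle, 30.2, 47.3 and 58.9 CPM in LPS, and 23.9, 59, 48.3 and 38.9 CPM in LPS+TSLP. Every treated library was above every Vehicle library. The log2 fold change in LPS against Vehicle was 2.61 with a standard error of 0.40 (edgeR adjusted p = 0.00288). Mki67 was called in LPS against Vehicle under all 27 alternative settings, with log2 fold changes from 2.36 to 3.0.

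Top2a, the topoisomerase that untangles replicated chromosomes and is commonly read together with Mki67, did not pass the test. It was 9.72, 14.4 and 32.4 CPM in Vehicle and 11.1, 18 and 20.5 CPM in LPS, and these groups overlapped. Its log2 fold change was -0.19 with a standard error of 0.41 (edgeR adjusted p = 0.766).

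Promoter sequence is shown for 4 mitotic genes called in LPS against Vehicle, 1 higher and 3 lower, so that the elements typical of cell cycle promoters can be seen in each. The sequences are RefSeq's for GRCm38.p6, read 5′ to 3′ on the gene's strand and ending before the first annotated exon. Capitals mark matches on either strand to the CHR element (TTTGAA or TTCGAA), the CCAAT box (CCAAT) or the E2F core (TTNNCGC, with C or G at each N). In the Ccnb1 window the E2F core match and the CCAAT box overlap.
Mki67, chr7:135716380-135716629 (minus strand): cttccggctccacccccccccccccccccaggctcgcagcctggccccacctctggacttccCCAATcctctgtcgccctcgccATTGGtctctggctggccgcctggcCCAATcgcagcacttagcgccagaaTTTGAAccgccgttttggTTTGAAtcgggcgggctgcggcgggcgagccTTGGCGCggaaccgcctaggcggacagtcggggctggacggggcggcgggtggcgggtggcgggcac
Ccnb1, chr13:100786571-100786736 (minus strand): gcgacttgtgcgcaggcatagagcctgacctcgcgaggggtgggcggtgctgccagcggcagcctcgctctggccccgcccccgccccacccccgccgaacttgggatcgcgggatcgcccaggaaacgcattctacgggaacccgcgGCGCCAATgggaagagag
Bub1b, chr2:118597961-118598210 (plus strand): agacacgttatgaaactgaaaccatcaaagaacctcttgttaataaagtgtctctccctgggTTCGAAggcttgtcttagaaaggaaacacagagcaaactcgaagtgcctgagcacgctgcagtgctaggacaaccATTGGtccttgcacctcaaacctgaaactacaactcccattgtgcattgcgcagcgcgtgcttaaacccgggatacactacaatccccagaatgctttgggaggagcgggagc
Cdc20, chr4:118437353-118437593 (minus strand): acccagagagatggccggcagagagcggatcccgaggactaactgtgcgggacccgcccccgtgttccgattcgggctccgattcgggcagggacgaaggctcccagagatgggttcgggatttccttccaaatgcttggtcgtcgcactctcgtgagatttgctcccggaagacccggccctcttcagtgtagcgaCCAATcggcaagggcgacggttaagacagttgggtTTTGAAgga
Mki67, which was higher with LPS, had matches to all 3 elements, and Bub1b and Cdc20, which were lower, each had a CHR match and a CCAAT box. The promoter of Cdkn1a, an entry regulator that was higher and is not shown, had none of the 3 elements. RefSeq promoters were listed for 35 of the 45 genes, some with more than 1 start. In the 250 bases upstream of the start, a CCAAT box was present in 19 of 21 promoters of G2/M genes (90.5%), in 10 of 18 of G1/S genes (55.6%) and in 33.8% of all 32851 promoters in the table. A CHR match was present in 9 of the 21 G2/M promoters (42.9%), in 2 of the 18 G1/S promoters (11.1%) and in 17.1% of all. An E2F core was present in 4 of the 21 G2/M promoters (19%), in 7 of the 18 G1/S promoters (38.9%) and in 7.89% of all. A match describes the letters of the reference and not the binding of a factor.

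Among the G1 cyclins and entry regulators, 2 of 7 genes were called higher with LPS and none was called lower. Ccne2 was 0.562, 0.801 and 1.26 CPM in Vehicle and 2.68, 3.39 and 3.39 CPM in LPS, without overlap. This rested on 10 to 23 counts per Vehicle library. The log2 fold change was 1.84 with a standard error of 0.43 (edgeR adjusted p = 0.0124). Of the exonic bases of Ccne2, 17.42% overlap Ints8 on the other strand, and whether counting used strand is not given in the sources used here. Transcripts of Ccne2 had 36.3% GC, and over 17125 tested genes the log2 fold change in LPS against Vehicle had a Spearman correlation with GC content of -0.37, across genes, which are not independent replicates. With each library's trend with GC removed, the log2 fold change of Ccne2 was 0.33 (edgeR adjusted p = 0.517) or, with the trend centred at the mean, 0.53 (0.3), and the call was lost. It was also lost without Vehicle replicate 1 (edgeR adjusted p = 0.0541) and without Vehicle replicate 2 (0.0518).

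Cdkn1a, a p53 target that halts the cycle in G1, was 53.2, 98.4 and 248 CPM in Vehicle and 486, 492 and 291 CPM in LPS. The lowest LPS library was above the highest Vehicle library, and Vehicle itself spanned a wide range. The log2 fold change was 1.67 with a standard error of 0.47 (edgeR adjusted p = 0.0255). The call was lost when Vehicle replicate 1, Vehicle replicate 2, LPS replicate 1 or LPS replicate 2 was left out, and over all settings the adjusted p ran up to 0.0953.

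The D-type cyclins, which respond to growth signals and start the cycle with CDK4 and CDK6, did not pass the test. Ccnd1 was 161, 170 and 169 CPM in Vehicle and 61.7, 91 and 191 CPM in LPS, with LPS replicate 3 above every Vehicle library. Ccnd2 was 184 ± 13.4 CPM in Vehicle and 153 ± 26 CPM in LPS, and Ccnd3 was 184 ± 15.1 and 167 ± 18.9 CPM (SD, n = 3 each). E2f1, which encodes the transcription factor released by the G1 kinases, was 15.8 ± 1.96 CPM in Vehicle and 10.7 ± 1.36 CPM in LPS (edgeR adjusted p = 0.0805). Ccne1, for cyclin E1, had a log2 fold change of 0.34 with a standard error of 0.38.

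Of the 13 genes of licensing and DNA synthesis, 1 was called lower with LPS and none higher, and 12 of 13 log2 fold changes were negative. Mcm7 was 37, 37.5 and 36.7 CPM in Vehicle and 26.9, 28.6 and 23.5 CPM in LPS. Its log2 fold change was small, -0.49 with a standard error of 0.16, and it stood at the threshold (edgeR adjusted p = 0.0491). It was called in 5 of 27 alternative settings, and among the fits that leave out 1 library only in that without LPS+TSLP replicate 1. Without LPS replicate 1 the log2 fold change of Mcm7 was -0.50 (edgeR adjusted p = 0.102). Of the 50-base stretches of Mcm7, 28.85% also occur in other annotated genes, Gm5487 and Ap4m1 among them. The other helicase subunits had log2 fold changes of -0.60 for Mcm2, -0.26 for Mcm3, -0.19 for Mcm4, -0.51 for Mcm5 and -0.32 for Mcm6, and none of these passed.

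The loading factors Cdc6 and Cdt1 had log2 fold changes of -0.53 and -0.27 in LPS against Vehicle. Gins2, a subunit of the active helicase, had one of -0.15, and 67.32% of its exonic bases overlap Gse1 on the other strand, so its level is uncertain. Ribonucleotide reductase makes deoxynucleotides, and its small subunit Rrm2 was 14.1, 16.5 and 21.7 CPM in Vehicle and 8.16, 10.5 and 9.55 CPM in LPS, without overlap (log2 fold change -0.89, edgeR adjusted p = 0.0549). The large subunit Rrm1 had a log2 fold change of -0.43, and Tyms, which makes thymidylate, had one of -0.02. Pcna, the sliding clamp of DNA polymerases, was the single gene of this list with a positive value. It was 65, 76.2 and 83.2 CPM in Vehicle and 132, 104 and 93.1 CPM in LPS, without overlap (log2 fold change 0.55, edgeR adjusted p = 0.0507). Of the 50-base stretches of Pcna, 20.65% are shared with the pseudogene Pcna-ps2.

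Among the 9 G2/M cyclin, kinase and ubiquitin ligase genes, all log2 fold changes in LPS against Vehicle were negative, from -1.53 to -0.51, and 2 were called. Ccnb1, which encodes cyclin B1, was 5.28, 5.23 and 7.37 CPM in Vehicle and 1.65, 2.26 and 2.28 CPM in LPS, without overlap. The log2 fold change was -1.53 with a standard error of 0.39 (edgeR adjusted p = 0.0171), a level 2.88-fold lower. It was called in 26 of 27 alternative settings, and without LPS replicate 1 the adjusted p was 0.0552. Ccnb1 shares 28.82% of its 50-base stretches with annotated copies, Ccnb1-ps among them, so part of its count is uncertain.

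Cdc20, the activator of the anaphase-promoting complex, was 10.5, 8.54 and 13.1 CPM in Vehicle and 3.96, 5.2 and 3.78 CPM in LPS. Its log2 fold change was -1.31 with a standard error of 0.44 (edgeR adjusted p = 0.0479), and the call held in 12 of 27 alternative settings. It was lost when any Vehicle or LPS library or LPS+TSLP replicate 4 was left out, and without LPS replicate 1 the log2 fold change was -1.25 (edgeR adjusted p = 0.143). The call was also lost whenever the GC trend was removed. Ccna2, for cyclin A2, fell short of the threshold with a change of the same size. It was 7.53, 9.98 and 16.8 CPM in Vehicle and 3.96, 4.91 and 4.94 CPM in LPS, without overlap (log2 fold change -1.31, edgeR adjusted p = 0.057). Ccna2 has 12.49% of its exonic bases under Exosc9 on the other strand. Plk1, the Polo kinase, had a log2 fold change of -0.96 and Wee1, the kinase that restrains CDK1, one of -0.75. Ccnb2 had -0.70, Ube2c, the ubiquitin-conjugating partner of the anaphase-promoting complex, had -0.64, and Cdk1 and Aurka had -0.51 each. None of these 6 passed. Of the exonic bases of Ube2c, 22.77% overlap Tnnc2 on the other strand, and 14.36% of its 50-base stretches also occur in other annotated genes.

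The 16 spindle, kinetochore, chromosome and cytokinesis genes were mixed, with 1 called higher, 3 called lower and 12 not called. Kif20a, a kinesin of the late mitotic spindle, was 5.45, 4.32 and 5.68 CPM in Vehicle and 0.792, 1.52 and 1.44 CPM in LPS. The LPS values rest on 13, 27 and 26 counts, and no LPS library came near the Vehicle libraries. Kif20a had a log2 fold change of -2.03 with a standard error of 0.37 (edgeR adjusted p = 0.00501). It was called in all 27 alternative settings, with log2 fold changes from -2.18 to -1.77. Of its exonic bases, 29.30% overlap Cdc23 on the other strand.

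Bub1b, which encodes the spindle checkpoint protein BubR1, was 14, 13.2 and 14 CPM in Vehicle and 6.58, 7.74 and 9.28 CPM in LPS. The log2 fold change was -0.80 with a standard error of 0.22 (edgeR adjusted p = 0.0227), and the call held in 17 of 27 alternative settings. It was lost without any 1 of the Vehicle libraries, LPS replicate 1 or LPS replicate 2, and without LPS replicate 1 the log2 fold change was -0.69 (edgeR adjusted p = 0.0677). The call was also lost with GC and length trends removed, and with the GC trend removed and centred at the mean. Prc1, which bundles the microtubules of the central spindle, was 4.89, 5.12 and 9.61 CPM in Vehicle and 2.25, 2.88 and 2.94 CPM in LPS. Its log2 fold change was -1.28 with a standard error of 0.43 (edgeR adjusted p = 0.0479), and it was called in 12 of 27 alternative settings. Of the exonic bases of Prc1, 11.08% overlap Rccd1 on the other strand, and 18.12% of its 50-base stretches also occur in other annotated genes. The call was lost when any Vehicle or LPS library, LPS+TSLP replicate 3 or LPS+TSLP replicate 4 was left out, and without LPS replicate 1 the log2 fold change was -1.17 (edgeR adjusted p = 0.145). The related checkpoint kinase Bub1 did not pass, at 1.95 ± 1.29 CPM in Vehicle and 2.15 ± 0.518 CPM in LPS (SD, n = 3 each).

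Genes of this list that did not pass lay on both sides. Aurkb, the kinase of the chromosomal passenger complex, had a log2 fold change of -1.14 and Tpx2, an activator of Aurora A, one of -1.24, both without overlap between groups. Birc5 (survivin, of the same passenger complex) had -0.44, Kif23 (a kinesin of cytokinesis) -0.76, Nusap1 (a spindle microtubule protein) -0.68 and Cenpa (the centromeric histone) -0.63. Cenpe, the kinetochore motor, had a log2 fold change of 1.52 (edgeR adjusted p = 0.0549) from 0.449, 0.694 and 1.47 CPM in Vehicle to 1.1, 3.56 and 2.89 CPM in LPS, and LPS replicate 1 was inside the Vehicle range. Hmmr (a spindle protein), Cenpf (a kinetochore protein), Kif11 (the spindle-forming kinesin) and Bub1 had log2 fold changes of 0.47, 0.26, 0.15 and 0.14. The signs of Hmmr, Cenpf, Kif11 and Bub1 changed in 7, 6, 8 and 9 of 27 alternative settings. Their transcripts had 41.8%, 43.3%, 42.2% and 41.0% GC. Over the 25 G2/M genes the log2 fold change had a Spearman correlation with GC content of -0.47, across genes, which are not independent replicates. The median of the list of 16 was -0.54, and -0.75 with the GC trend removed at the median, where that of all genes was -0.15.

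**Figure D2:**
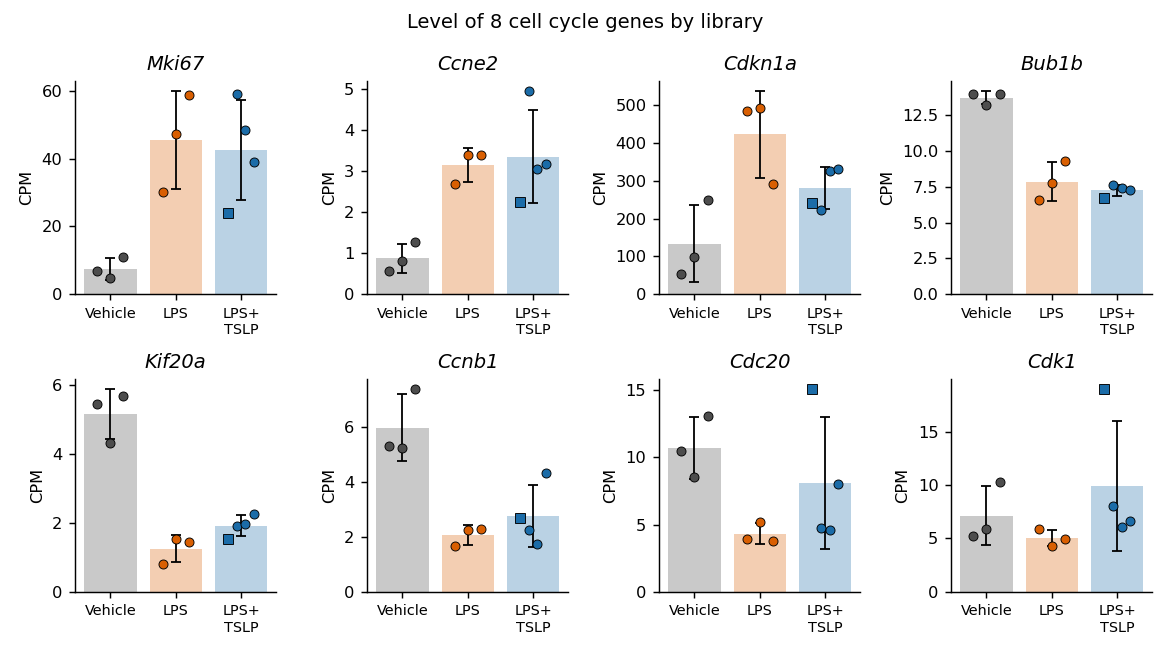
Level in CPM of 8 genes in each library (points), with the group mean (bar) and SD (error bar); n is 3, 3 and 4 libraries, and the square is LPS+TSLP replicate 1. For Mki67, Ccne2 and Cdkn1a the LPS points lie above all Vehicle points, for Bub1b, Kif20a, Ccnb1 and Cdc20 below them, and the square stands alone for Cdc20 and Cdk1, at 15.1 and 19 CPM.

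The split of calls over all genes depended on how the GC trend was handled. Of all genes called in LPS against Vehicle, 57.0% were higher in the fit described, 38.1% with the GC trend removed and centred at each library's median gene, and 61.6% when it was centred at the mean. These centrings shifted the median of all genes to -0.15 and 0.05. The second centring was added after the results of the first were seen. Among the 45 genes, 2 were then higher and 8 lower with the first and 2 higher and 5 lower with the second. Over all genes, 1390 were higher and 2258 lower with the first, and 2104 higher and 1310 lower with the second. The median over the 45 genes, -0.52 and -0.32, was below that of all genes in each.

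Marker levels of some other cells moved with treatment and those of others overlapped between Vehicle and LPS. Alveolar macrophage markers summed to 945 to 1170 CPM in Vehicle and 801 to 1200 CPM in LPS, with 1 of 6 called higher and 1 lower. T cell markers summed to 60.6 to 96.9 and 56.2 to 102 CPM, and B cell markers to 69.4 to 165 and 57.7 to 108 CPM, with none called. Neutrophil markers summed to 303 to 986 CPM in Vehicle and 1470 to 1880 CPM in LPS, with 1 of 6 called higher. Fibroblast markers summed to 2810 to 3830 CPM in Vehicle and 967 to 1640 CPM in LPS, with 3 of 6 called lower. Alveolar type 2 markers summed to 14800 to 23800 CPM in Vehicle and 5550 to 13200 CPM in LPS, with 2 of 6 called lower and 1 higher, and endothelial markers summed to 3560 to 4710 and 3050 to 3240 CPM, with 3 of 6 called lower. Markers of neutrophil precursors, which divide in marrow, were low throughout, at 6.74 to 11.3 CPM summed over 5 genes in Vehicle and 2.49 to 5.17 CPM in LPS, with none of the 4 tested called. In LPS, Ctsg was at 0 in replicates 1 and 2, and Ms4a3 in replicate 1. Erythroid precursor markers summed to 182 to 370 CPM in Vehicle and 123 to 413 CPM in LPS, with 1 of 5 tested called lower. Hbb-bt and Alas2 made up most of these sums, at 250 and 109 CPM in Vehicle replicate 1 and 352 and 55.5 CPM in LPS replicate 1. Klf1 was at most 0.843 CPM in Vehicle and LPS, and at 0 in LPS replicate 1. The part of these cells in the cell cycle levels was not tested.

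LPS+TSLP was compared with Vehicle to describe the same genes after both agents. The Vehicle libraries are shared with the comparison above, so the 2 sets of values are not independent. Here 3 of 45 genes were higher and 3 lower, against 8.82% of all tested genes higher and 5.35% lower, 14.2% either way. Mki67 was 42.5 ± 14.9 CPM (SD, n = 4) against 7.47 ± 3.19 CPM in Vehicle (SD, n = 3), a log2 fold change of 2.51 with a standard error of 0.39 (edgeR adjusted p = 0.00379). Ccne2 had a log2 fold change of 1.93 (edgeR adjusted p = 0.0141). Its call held in 19 of 27 alternative settings and was lost without Vehicle replicate 1 or Vehicle replicate 2 and whenever the GC trend was removed, with log2 fold changes down to 0.46 and edgeR adjusted p up to 0.37. Cenpe had a log2 fold change of 1.74 (edgeR adjusted p = 0.0424). Cenpe was 2.81, 2.76, 3.22 and 2.93 CPM in the 4 LPS+TSLP libraries, all above Vehicle, and its call held in 15 of 27 alternative settings. Left out singly, Vehicle replicates 1 and 2, LPS replicate 3 and LPS+TSLP replicates 2 and 3 each ended it. The Cenpe call was also lost whenever the GC trend was removed and with scaling by library size alone.

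Bub1b was 7.25 ± 0.379 CPM with LPS+TSLP (SD, n = 4), a log2 fold change of -0.92 (edgeR adjusted p = 0.0157), and Kif20a was 1.91 ± 0.297 CPM, a log2 fold change of -1.42 (edgeR adjusted p = 0.0185). Mcm5, a helicase subunit, was 22.9, 29 and 35.1 CPM in Vehicle and 18.4, 12, 15.4 and 20.6 CPM with LPS+TSLP (log2 fold change -0.81, edgeR adjusted p = 0.0335). All 4 LPS+TSLP libraries were below the lowest Vehicle library for these 3 genes. The calls of all 3 were lost without Vehicle replicate 1 or Vehicle replicate 2, those of Kif20a and Mcm5 also without LPS+TSLP replicate 2 or LPS+TSLP replicate 3, and that of Mcm5 without Vehicle replicate 3. Those of Bub1b and Mcm5 were also lost with GC and length trends removed, and with the GC trend removed and centred at the mean. With the GC trend removed at the median and no replicate block, that of Mcm5 was lost. The Kif20a call held in all these trend fits. Ccnb1 had a log2 fold change of -1.11 (edgeR adjusted p = 0.0546) and Wee1 one of -0.97 (edgeR adjusted p = 0.0718), and Cdkn1a had one of 1.07 (edgeR adjusted p = 0.116). Groups did not overlap for 14 genes, 3 higher and 11 lower, beside 15.7% and 15.9% of all tested genes, 31.7% either way. At an unadjusted p under 0.05 there were 16 of the 45, beside 33.0% of all. The median over the 45 genes was -0.34, beside 0.03 over all tested genes, with -0.35 for G1/S and -0.09 for G2/M genes.

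LPS+TSLP replicate 1 set part of these values. Without it, 3 genes were higher and 7 lower in LPS+TSLP against Vehicle, and the G2/M median was -0.46 in place of -0.09. Of all tested genes, 11.3% were higher and 7.85% lower in that fit. The genes added as lower were Rrm2, with a log2 fold change of -0.99 (edgeR adjusted p = 0.0226), Ccna2, with -1.37 (0.0179), Wee1, with -1.14 (0.0395), and Tpx2, with -1.08 (0.0375). When Vehicle replicate 1 or Vehicle replicate 2 was left out, 1 gene was higher and 0 were lower, beside 2.63% and 2.49% of all genes higher and 0.426% and 0.613% lower. Without Vehicle replicate 3, 5 were higher and 2 lower, beside 8.65% and 5.14% of all genes. Without LPS+TSLP replicate 2 or LPS+TSLP replicate 3, 1 was lower, beside 1.2% and 1.07% of all genes. Without LPS+TSLP replicate 4, 5 were lower, beside 8.62% of all genes.

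LPS+TSLP was compared with LPS to ask what TSLP given ahead of LPS changed. No gene of the 45 passed the test, and none of the 17139 tested genes did in edgeR's quasi-likelihood test. At an unadjusted p under 0.05 there were 4 of the 45 and 1388 of all tested genes, 8.10%. The 0% called is the background here: limma-voom also called no gene, and the DESeq2 Wald test called 22 genes higher and 13 lower, with none of the 45 among them. The 4 genes at an unadjusted p under 0.05 were Plk1, Ube2c, Cdk1 and Cdc20, all of the G2/M cyclin, kinase and ubiquitin ligase list. Their log2 fold changes were 1.06 for Plk1, 1.06 for Ube2c, 0.98 for Cdk1 and 0.91 for Cdc20, with standard errors of 0.41, 0.40, 0.43 and 0.41 and edgeR adjusted p from 0.589 to 0.615. Without LPS+TSLP replicate 1 these log2 fold changes were 0.66 for Plk1, 0.59 for Ube2c, 0.43 for Cdk1 and 0.39 for Cdc20, and none of the 45 genes had an unadjusted p under 0.05.

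The median log2 fold change of the G2/M genes in LPS+TSLP against LPS was 0.42, with 22 of 25 values positive, beside 0.02 over all tested genes. That of the G1/S genes was -0.03, with 10 of 20 positive. Without LPS+TSLP replicate 1 the medians were 0.21 for G2/M and -0.20 for G1/S genes. Without both that library and LPS replicate 1 they were 0.08 and -0.19. Groups did not overlap for 4 of the 45 genes, Cdk1, Kif20a, Kif23 and Cenpf, all higher with LPS+TSLP. Over all tested genes, 3.88% were higher without overlap, 3.54% were lower and 7.42% went either way. Cdkn1a was 241, 223, 325 and 332 CPM with LPS+TSLP beside 486, 492 and 291 CPM with LPS, and Mki67 had a log2 fold change of -0.10 with a standard error of 0.35.

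**Figure D3:**
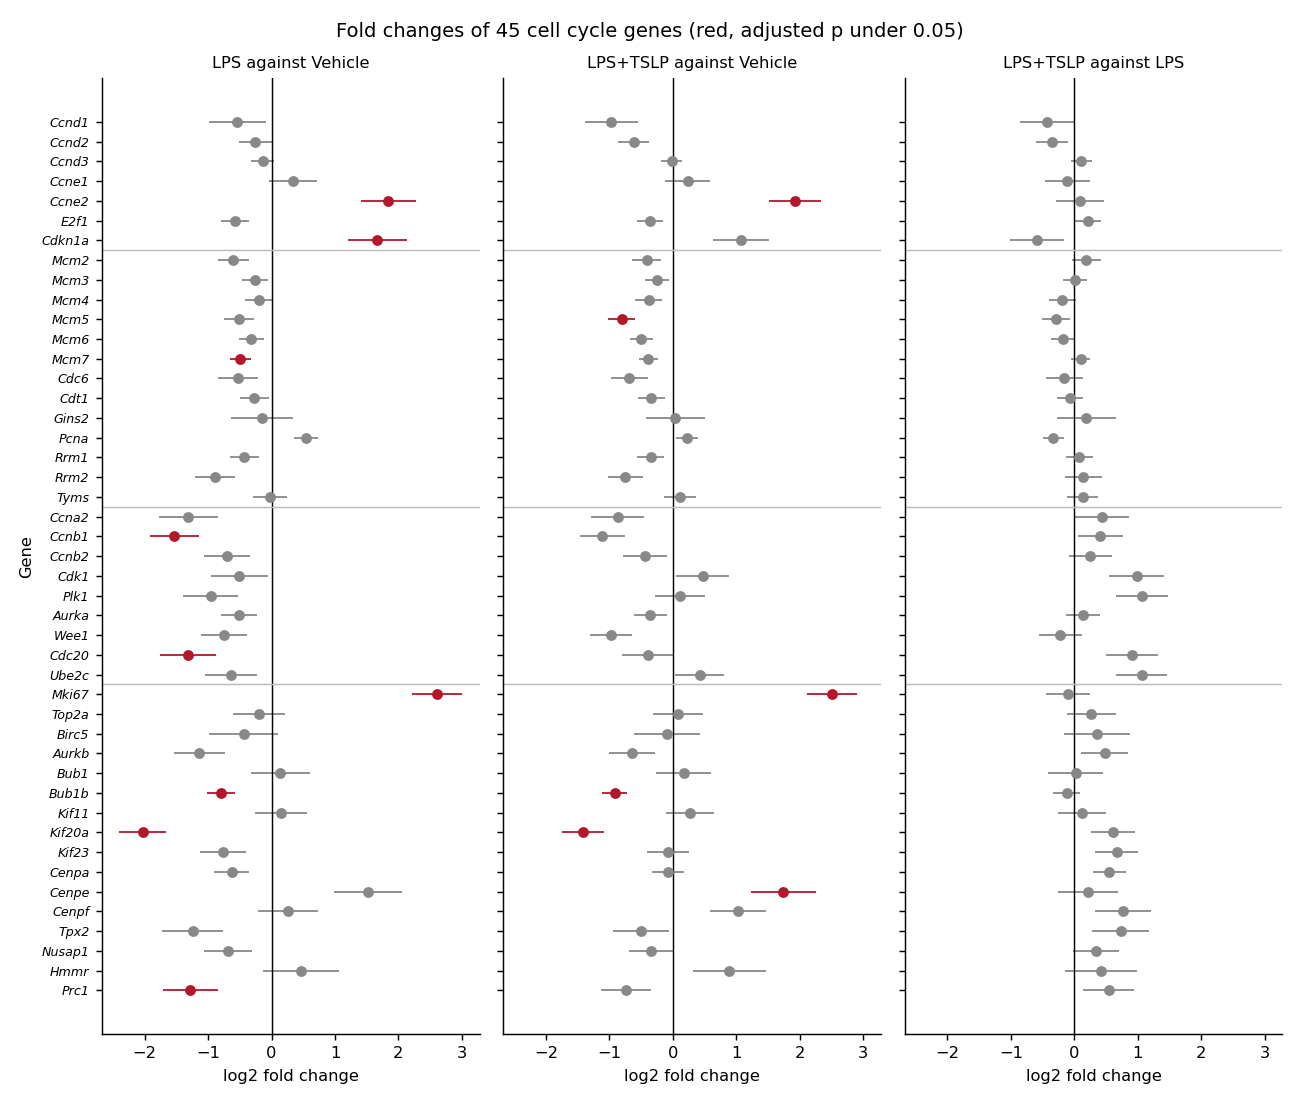
Log2 fold change of each of the 45 genes (points) with its standard error (bars) in the 3 comparisons, on the same horizontal scale, with genes called at an adjusted p under 0.05 in red. In LPS against Vehicle 3 red points lie right of 0 and 6 left of it, in LPS+TSLP against Vehicle 3 lie on each side, and in LPS+TSLP against LPS there are none.

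LPS+TSLP replicate 1 was above the other 3 libraries of its group in 28 of the 45 genes and below them in 5. Over all tested genes the same library was above the others in 29.2% and below them in 38.4%. It was above them in 7 of the 9 G2/M cyclin, kinase and ubiquitin ligase genes, with a median log2 difference of 1.16, and in 10 of the 13 licensing and synthesis genes, with a median of 0.31. Cdk1, the mitotic kinase, was 19 CPM in replicate 1 and 8, 6.05 and 6.59 CPM in replicates 2 to 4. Ube2c was 19.8 CPM beside 8.29, 9.38 and 6.04 CPM, and Birc5 was 13.3 CPM beside 2.76, 3.27 and 4.52 CPM. Mki67 ran the other way, at 23.9 CPM beside 59, 48.3 and 38.9 CPM, and so did Ccne2, at 2.24 CPM beside 4.95, 3.05 and 3.17 CPM.

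Other marks of this library moved with these values. Its summed markers were low for neutrophils (115 CPM) and alveolar type 2 cells (3700 CPM beside 13900 to 21800 CPM). Those of alveolar macrophages were also low (347 CPM beside 754 to 1020 CPM). Of the neutrophil precursor list, Elane, Mpo, Ctsg and Ms4a3 were at 0 in replicate 1, and Prtn3 was 1.28 CPM. Replicate 4 was similarly low: that list summed to 1.28 CPM in replicate 1 and 1.77 CPM in replicate 4. It summed to 19.3 and 11.7 CPM in replicates 2 and 3. T cell markers summed to 94.9 CPM in replicate 1 beside 43.7 to 95.2 CPM in the others. B cell markers summed to 121 CPM there beside 90.8 to 154 CPM, and thymocyte markers to 32.3 CPM beside 16.1 to 34.6 CPM. Of that thymocyte sum, Cd8a and Cd4, which mature T cells share, made up 17.1 and 13.4 CPM. Dntt was 1.34 CPM there beside 0.0575, 0.709 and 0.122 CPM, Rag1 was 0.32 CPM beside 0 to 0.273 CPM, Ptcra was 0.192 CPM (3 counts) and at 0 in the others, and Rag2 was at 0 there and in replicate 4. These single thymocyte markers were chosen after their values were seen. The part of cell makeup or RNA quality in the cell cycle levels of this library was not tested.

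**Figure D4:**
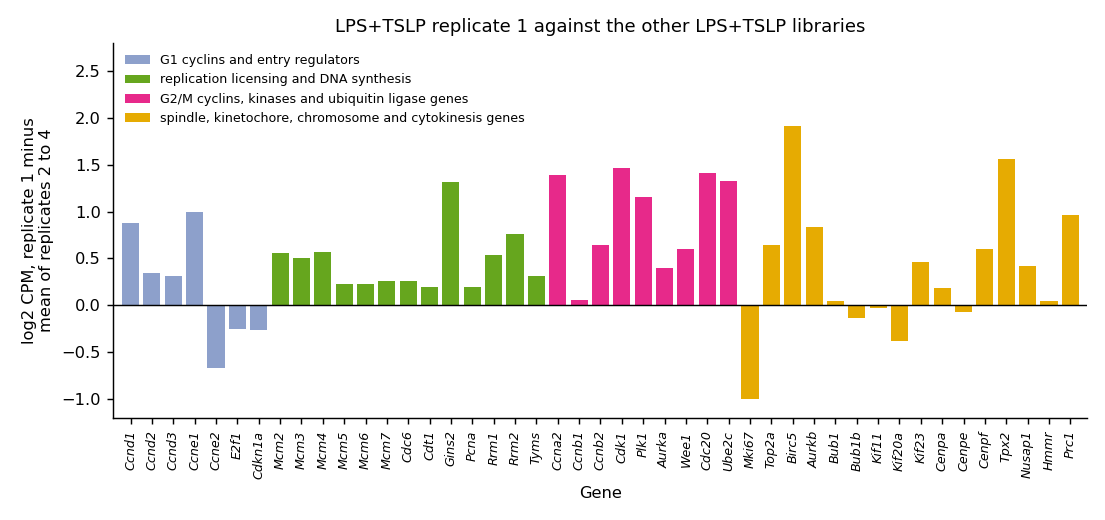
Log2 CPM in LPS+TSLP replicate 1 minus the mean of LPS+TSLP replicates 2 to 4 for each of the 45 genes (bars, coloured by list). The bars of Cdk1 and Cdc20 reach 1.46 and 1.41, that of Birc5 reaches 1.91, and that of Mki67 falls to -1.0.

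Vehicle replicate 3 had the highest level of its group in 38 of the 45 genes, 23 of the 25 G2/M genes among them, while over all tested genes it was highest in 37%. Top2a was 32.4 CPM there beside 9.72 and 14.4 CPM, and Tpx2 was 15.8 CPM beside 7.41 and 10.3 CPM. Its neutrophil markers summed to 986 CPM beside 303 and 481 CPM in the other Vehicle libraries, and its Cdkn1a was also the highest of the group, at 248 CPM. Of the libraries, Vehicle replicate 3 and LPS+TSLP replicate 1 had the highest mean log2 CPM over the G2/M genes, 3.0 and 2.90. The other Vehicle libraries were at 2.28 and 2.29, the LPS libraries at 1.83, 2.30 and 2.09, and the remaining LPS+TSLP libraries at 2.23, 2.22 and 2.49.

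The mean log2 CPM of the G2/M genes minus that of the G1/S genes compares the later with the earlier phase within a library. It was -2.19, -2.39 and -1.95 in Vehicle, -2.73, -2.35 and -2.57 in LPS, and -1.90, -2.05, -2.20 and -2.10 in LPS+TSLP. All LPS+TSLP libraries were above all LPS libraries, and both overlapped or neighboured Vehicle: LPS replicate 2 and all LPS+TSLP libraries but replicate 1 lay within the Vehicle range. These are means over genes with known results and carry no test.

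**Figure D5:**
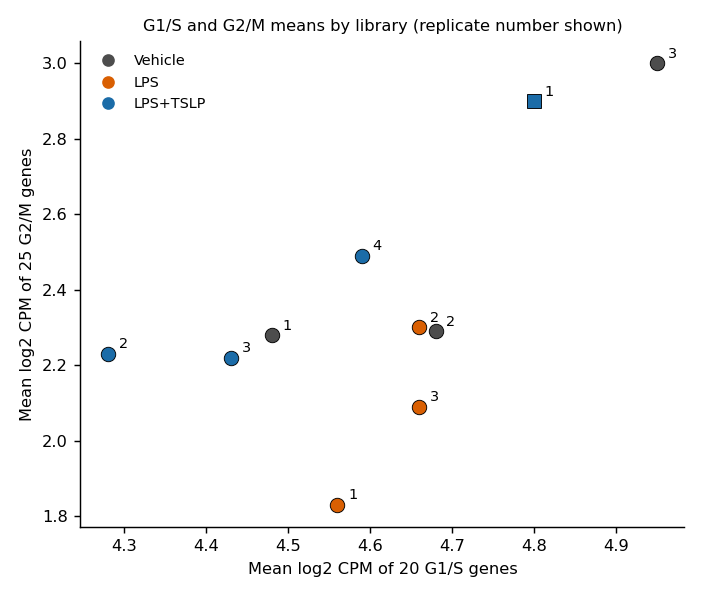
Mean log2 CPM over 20 G1/S genes (horizontal) and over 25 G2/M genes (vertical) in each library, coloured by group and marked with the replicate number; the square is LPS+TSLP replicate 1. Vehicle replicate 3 (4.95 and 3.0) and LPS+TSLP replicate 1 (4.80 and 2.90) lie at the upper right, and LPS replicate 1 (4.56 and 1.83) is lowest on the vertical axis.

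Levels of different genes were compared per length, as CPM per kilobase of exon (RPKM). In Vehicle the order ran from Cdkn1a (37.5), Ccnd1 (35.4), Pcna (31.2), Ccnd3 (21) and Ccnd2 (19.6) down to Hmmr (0.131), Cenpf (0.105) and Cenpe (0.101). The SD of Cdkn1a in Vehicle exceeded its distance from Ccnd1 and Pcna, so the order of these 3 is not settled. In LPS Cdkn1a was at 119 RPKM and Pcna at 45.6 RPKM, ahead of Ccnd1 at 24.3 RPKM. Mki67 stood at 0.743 RPKM in Vehicle, rank 39 of 45, and at 4.52 RPKM in LPS, rank 11.

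Of 45 further genes of G2/M and mitosis, 3 were higher and 6 lower in LPS against Vehicle, the same counts as among the 45 genes above. For this list and the 3 that follow, the shares of all tested genes are 14.2% higher and 10.7% lower. Single genes of these lists are given from the main fit only. Whether their calls hold with the GC trend removed or with a library left out is not given here. Ncapd2, a condensin subunit, was lower, with a log2 fold change of -1.50 (edgeR adjusted p = 0.00321), and so was Cdc25b, a phosphatase that activates CDK1, with -1.13 (0.00547). The core condensin ATPases were higher, Smc4 with a log2 fold change of 2.99 and Smc2 with 2.17 (both edgeR adjusted p = 0.00196). Smc4 rose from 5.01 ± 1.21 CPM to 39.9 ± 8.04 CPM (SD, n = 3 each). Condensin genes thus lay on both sides in the main fit.

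Of 35 further genes of G1/S and replication, 2 were higher and 1 lower with LPS. Hells, a chromatin remodeller of replicating cells, had a log2 fold change of 2.06 (edgeR adjusted p = 0.00539), and the transcription factor E2f2 had -1.02 (0.00702). Of 16 CDK partners, CDK inhibitors and pocket proteins, the pocket protein gene Rbl2 was lower (log2 fold change -1.02, edgeR adjusted p = 0.014) and none was higher. Of 14 p53 target genes, 4 were higher and 1 lower. Those with the smallest adjusted p were Gadd45a, a stress gene, with a log2 fold change of 2.29 (edgeR adjusted p = 0.00196), the cell death gene Bax with 1.22 (0.0107), the death receptor Fas with 1.35 (0.014) and the cyclin G1 gene Ccng1 with 1.07 (0.0142). In LPS+TSLP against LPS none of the genes on these 4 lists was called.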

How the data were processed

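Per the submitters' processing notes, reads were handled with CASAVA, HISAT2 and HTSeq 0.6.0 on GRCm38/mm10, and the authors deposited raw counts per gene. The annotation release and strand setting are not given in the sources used here. Libraries were grouped by the treatment in the labels. A filter on low counts (filterByExpr) left 17139 genes. TMM factors were applied, and groups were compared with edgeR 4.0.16 in R 4.3.3 (robust quasi-likelihood, 10 libraries in 1 fit of 3 groups, 7 residual degrees of freedom, two-sided, Benjamini-Hochberg adjustment over all tested genes, threshold 0.05). Standard errors are the size of the log2 fold change divided by the square root of its F statistic. CPM used the scaled library sizes, and log2 CPM a prior count of 2. No within-group pair of libraries had identical counts. Positions, exonic lengths, overlaps and stretches of 50 bases shared with other genes (sampled 1 in 4) came from GENCODE M21 on GRCm38, and promoters from RefSeq.

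The genes, lists and tests were chosen with earlier results of these data known. All 45 genes are named. From each other pathway list, up to 4 genes with the smallest adjusted p among those called in LPS against Vehicle are named, and marker lists are given as sums. The values of 1 gene that this rule names are not reported here. Promoters were to be shown for up to 6 G2/M and replication genes by adjusted p, outside chromosome 18 and so without Kif20a, and the first 4 of these are shown.

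Alternatives were other scalings, no filter, the DESeq2 1.42.0 Wald test, limma-voom (limma 3.58.1), fits of the groups compared alone, a replicate block, removal of mitochondrial and haemoglobin genes, removal by loess (span 0.3) of trends with GC content, and leaving out each library. Those with gene length, with GC and length together, and without 2 libraries were added after the data were seen. So was a second centring of the trends at each library's mean over genes, run after the median-centred results had been seen. The fits were also run on simulated data with known changes, and the outcome is not given here. Those simulated data held no broadly deviant library such as LPS+TSLP replicate 1, so they do not test the fits in that setting.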

Additional observations from a re-analysis of the deposited data

Results flagged for a closer look

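Among the 45 genes, 3 had an LPS+TSLP library far from the other 3 by Dixon's test for 4 samples, which chance alone passes in about 1 in 20 groups. The share of all tested genes that pass this test is not given, so the 3 genes cannot be set against the background. In each of the 3 genes the library was LPS+TSLP replicate 1 and it was the highest. Over all tested genes that library was above the other LPS+TSLP libraries in 29.2% and below them in 38.4%. Mcm7 was 32.4 CPM there and 26.4 to 27.3 CPM in the others, Cdk1 was 19 CPM and 6.05 to 8 CPM, and Birc5 was 13.3 CPM and 2.76 to 4.52 CPM. Groups of 3 libraries were not tested in this way.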

How the results depend on the processing

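In LPS+TSLP against LPS 0 of the 45 genes were called under any of the 27 alternatives. In LPS against Vehicle, leaving out 1 library gave 1 to 5 genes higher and 1 to 10 lower. Of all tested genes, 6.09% to 17.3% were then higher and 3.52% to 14.3% lower. In LPS+TSLP against Vehicle it gave 1 to 5 higher and 0 to 7 lower. There the shares of all tested genes were 2.49% to 11.7% higher and 0.426% to 8.62% lower. The DESeq2 Wald test gave 5 higher and 10 lower in LPS against Vehicle, and 5 lower in LPS+TSLP against Vehicle. Over all genes it called 3013 higher and 2492 lower in the first, where the main test called 2437 and 1836. In the second it called 1629 lower, where the main test called 917. With the replicate block, 3 were lower in LPS against Vehicle and 5 were lower in LPS+TSLP against Vehicle, beside 1996 and 1592 lower over all genes. The deviations of same-numbered libraries from their group means correlated at -0.34 to 0.40. Differently numbered libraries were not compared in this way, so these values cannot show whether the numbers pair the libraries. In LPS+TSLP against Vehicle 1 gene was higher with the GC trend removed under either centring, alone or with the replicate block. This also held with GC and length trends removed at the median. These fits called from 634 to 1523 genes higher over all genes. With the GC trend removed at the median and the replicate block, 8 were lower, beside 2126 over all genes. Without both LPS replicate 1 and LPS+TSLP replicate 1, 7 were lower in that comparison, beside 8.79% of all tested genes. The centring of the trends was tried both ways, the mean after the median had been seen. Of all genes called in LPS+TSLP against Vehicle, 62.2% were higher in the main test, 32.8% with the median and 67.3% with the mean centring. Ccnd3 changed sign and was called with GC and length trends removed, with log2 fold changes of 0.80 (median) and 0.84 (mean) in LPS against Vehicle and 0.70 (mean) in LPS+TSLP against Vehicle. Sign changes of genes called in neither fit were not counted as reversals: over the 27 alternatives there were 63 in LPS against Vehicle, 78 in LPS+TSLP against Vehicle and 45 between the treated groups. For all of these the cause was not tested. Several mitotic genes had under 30 counts in a library, which limits their precision. Leave-one-out fits kept the genes of the main filter.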
